A study of Mus musculus with 2 samples.

Results

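The genes described here were 35 genes of class I antigen presentation and of the interferon response, of 28000 features counted in 2 single-cell RNA libraries of the mouse thoracic aorta. All 35 were found by symbol in both count matrices. They were followed over smooth muscle cells (SMCs) that carried the lineage label, taken as cells with at least 5 unique molecular identifiers (UMIs) of eGFP, at least 500 genes and at most 10% mitochondrial UMIs. That left 1692 of 2095 control cells and 1919 of 2097 knockout (KO) cells.

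Both groups were male C57BL/6 mice of 24 weeks that carried Myh11-CreERT2, a tamoxifen-inducible recombinase driven by the Myh11 promoter of smooth muscle, and mT/mG, a reporter that turns on membrane GFP after recombination. Both received tamoxifen at 1.5 weeks. The control library is labelled Tsc1+/+ and the KO library comes from Tsc1fl/fl.Myh11-CreERT2.mT/mG mice, labelled Tsc1-/-. The comparison asks how loss of Tsc1, which with Tsc2 restrains the growth kinase complex mTORC1, alters the transcripts of fate-mapped aortic SMCs. Each genotype had 1 library, from a number of animals that the labels do not state, and so the differences come with no replicate check and no p-value.

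Class I molecules show peptides from inside a cell to cytotoxic T cells. The proteasome, in its interferon-induced form the immunoproteasome, cuts the peptides, the Tap transporter moves them into the endoplasmic reticulum, tapasin helps load them, and a heavy chain of the H2 locus carries them to the surface with its light chain, beta-2 microglobulin. Interferons act through Stat2 and Irf9, among other factors, on genes that hold an interferon-stimulated response element (ISRE) near their start, and these include class I genes as well as antiviral effectors such as the Ifit family.

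The labelled cells held 20011501 UMIs in control and 30778165 in KO cells, with a median per cell of 11665 and 15012. Levels below are in CPM, the summed UMIs of a gene scaled to a total of 1000000 UMIs over all genes, with a 95% interval that covers counting error only. A count of 3 UMIs equals 0.15 CPM in control cells and 0.0975 CPM in KO cells. The SMC markers fixed for this work were all 8 above 10 CPM in both libraries, and summed to 44683 CPM in control cells and 21690 CPM in KO cells. Tsc1 had 9.54 CPM in control cells and 8.55 CPM in KO cells, but the sequenced tag can lie outside the deleted part, so this checks nothing. The 2 libraries shared 16 cell barcodes, of which 4 labelled control and 5 labelled KO cells carried 1. At the edge of the eGFP limit, 20 control and 5 KO cells had 1 to 4 eGFP UMIs, and 22 control and 27 KO cells had 5 to 8.

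Among the motifs searched, the ISRE lay in the promoters of the most members. The promoter stretches of 6 members that were higher in the KO library are shown because they carry the ISRE or a related motif. RefSeq promoters (GRCm38.p6, 250 bases before to 50 after a start) were found for 30 of the 35 members. The ISRE, searched as the letters GAAA, any 2 bases and GAAA again on both strands with overlapping matches counted, lay in the promoters of 14 of these 30 members (46.7%). It lay in 3.99% of the 27025 genes with a promoter and in 3.44% of all 32851 promoter windows. Each stretch below runs 5′ to 3′ on the strand of its gene from base -180 to base -61, counted from the start, and capitals mark the motif.

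Ifit1, chr19:34640709-34640828 of GRCm38.p6 on the plus strand, 2 ISRE matches from -104 and -85: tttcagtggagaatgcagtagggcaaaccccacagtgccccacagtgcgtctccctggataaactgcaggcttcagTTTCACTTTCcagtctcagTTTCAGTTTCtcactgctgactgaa
Ifit3, chr19:34583349-34583468 of GRCm38.p6 on the plus strand, 2 ISRE matches from -156 and -122: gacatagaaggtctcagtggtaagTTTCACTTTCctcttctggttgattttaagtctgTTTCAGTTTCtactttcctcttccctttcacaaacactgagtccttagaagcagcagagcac
Bst2, chr8:71537533-71537652 of GRCm38.p6 on the minus strand, 2 overlapping ISRE matches from -130 and -124: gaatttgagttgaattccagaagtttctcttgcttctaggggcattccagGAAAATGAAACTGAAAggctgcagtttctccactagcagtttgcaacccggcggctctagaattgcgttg
Isg15, chr4:156200879-156200998 of GRCm38.p6 on the minus strand, 2 overlapping ISRE matches from -78 and -72: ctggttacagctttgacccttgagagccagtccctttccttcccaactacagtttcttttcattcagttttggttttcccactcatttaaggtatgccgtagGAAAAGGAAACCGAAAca
B2m, chr2:122147507-122147626 of GRCm38.p6 on the plus strand, 1 ISRE match from -139: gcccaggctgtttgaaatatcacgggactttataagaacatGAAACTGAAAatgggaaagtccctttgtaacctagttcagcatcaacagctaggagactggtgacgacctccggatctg
H2-K1, chr17:34000408-34000527 of GRCm38.p6 on the minus strand, a kappaB match from -111 and a shorter ISRE form from -90: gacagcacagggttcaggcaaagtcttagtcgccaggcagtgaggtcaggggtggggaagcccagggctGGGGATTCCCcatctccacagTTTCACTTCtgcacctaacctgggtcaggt

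In Isg15 a further ISRE match starts at -66 and runs past the stretch. The shorter form GAANNGAAA, on both strands, was in 7 of the 30 members, in 8.68% of the genes with a promoter and in 7.52% of all windows. The GAS motif, searched as TTC, any 3 bases and GAA, was in 7 of the 30 members and in 9.55% of the genes with a promoter. The kappaB letters, the first run of capitals in H2-K1 and searched on both strands, were in H2-K1 and H2-D1 among the members and in 0.107% of all windows. Among members with a promoter, the ISRE was present in 7 of the 12 that were higher in the KO library and in 3 of the 8 that were measured and were not. The shorter form was in 2 of the 12 and 4 of the 8, and GAS in 4 of the 12 and 1 of the 8. These are matches of letters and not shown to be sites.

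Over all labelled cells, 12 of the 35 members were at least 1.5-fold higher in the KO library and 0 were at least 1.5-fold lower. A further 10 lay within that fold, and 13 stayed under 10 CPM in both libraries and were not called. Among all 8113 genes at 10 CPM or more in either library, 13.2% were higher by the same rule and 11.4% lower. Of the 22 members measured, 17 reached 10 CPM in the control, and 7 of these 17 were higher. The other 5 reached it only in the KO library, so the minimum admitted them through their KO level. The median log2 ratio was 0.72 for the measured members and -0.00 for all genes. At a minimum of 50 CPM, 4 of 10 measured members were higher, against 12.1% of all genes. The summed level of 7 fibroblast markers moved with this difference, from 41.7 CPM in the control to 640.2 CPM in KO cells. In both libraries most of this sum came from Lum and Dcn. Of the 7 markers, 1 reached 10 CPM in control cells and 3 in KO cells. Their part in the difference was not tested. The markers of macrophages (17.9 against 15.2 CPM), of T and NK cells (12 against 2.31 CPM) and shared by leukocytes (4.25 against 2.34 CPM) were not higher in the KO library. Neutrophil markers were, at 8.55 CPM in control cells and 24.3 CPM in KO cells, with 58.2 CPM in the middle contractile part of the KO library described below. Without the cells that held leukocyte or endothelial markers, 12 members were higher and 0 lower.

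**Figure D1:**
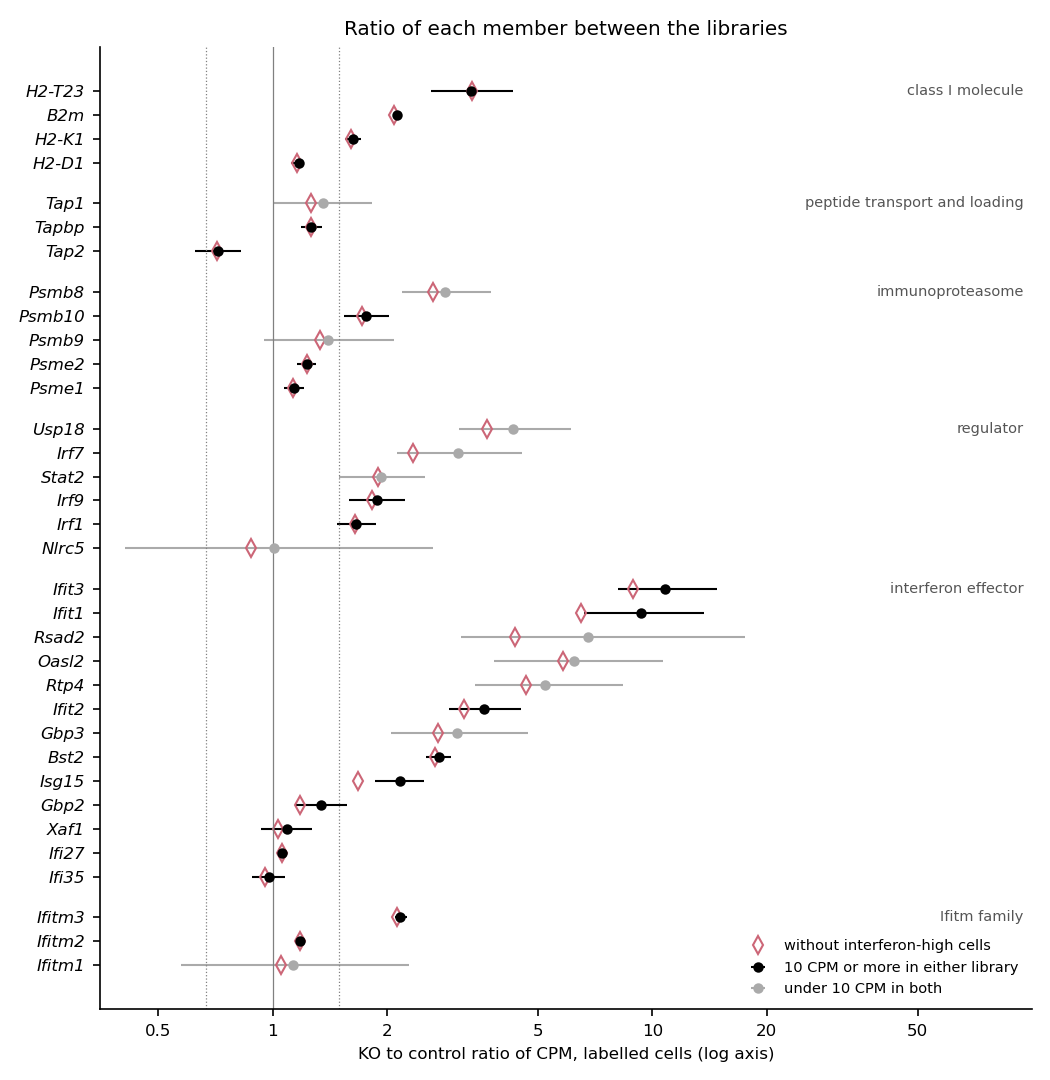
KO to control ratio of CPM over labelled cells for the 34 members with a UMI in the control, grouped by role, on a log axis; bars are 95% counting intervals, dotted lines mark 1.5-fold in either direction, and open diamonds leave out the interferon-high cells described in the text. Ifit3 and Ifit1 lie farthest to the right at 10.8 and 9.35, the 4 class I molecules spread from 1.17 to 3.33, and Tap2 lies lowest at 0.718.

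Among the class I molecules, 3 of 4 were higher. B2m (chromosome 2, 122147686 to 122153083, mm10), the light chain that every class I molecule needs, had 731.6 CPM (719.8 to 743.6) in control cells and 1548 CPM (1534 to 1562) in KO cells, a ratio of 2.12 (2.08 to 2.15). H2-K1 (chromosome 17, 33996017 to 34000347), a classical heavy chain, had 105.0 CPM (100.6 to 109.6) and 170.9 CPM (166.3 to 175.5), a ratio of 1.63 (1.55 to 1.71). H2-T23 (chromosome 17, 36029773 to 36032855), the nonclassical heavy chain Qa-1, had 3.95 CPM (3.13 to 4.92) and 13.2 CPM (11.9 to 14.5), a ratio of 3.33 (2.61 to 4.30). H2-D1 (chromosome 17, 35262730 to 35267499), the other classical heavy chain, had 236.4 CPM (229.7 to 243.2) and 275.4 CPM (269.6 to 281.3), a ratio of 1.17 (1.12 to 1.21). The light chain therefore differed more between the libraries than either classical heavy chain. Class I heavy chains are near copies of each other, so the split of their reads is uncertain.

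None of the 3 genes of peptide transport and loading was higher. Tapbp, which encodes tapasin, had 70.5 CPM (66.9 to 74.3) and 89.2 CPM (85.8 to 92.6), a ratio of 1.26 (1.19 to 1.35). Tap2 (chromosome 17, 34203527 to 34216321), a subunit of the peptide transporter, pointed the other way, with 19.6 CPM (17.7 to 21.6) and 14.1 CPM (12.8 to 15.5), a ratio of 0.718 (0.625 to 0.825). Its partner Tap1 stayed low, with 70 UMIs in control and 146 in KO cells.

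The immunoproteasome members were split. Psmb10 (chromosome 8, 105935735 to 105938444), a catalytic subunit, had 14.8 CPM (13.2 to 16.6) and 26.1 CPM (24.3 to 28.0), a ratio of 1.76 (1.54 to 2.02). Psmb8, another catalytic subunit, lay just under the minimum, with 3.5 CPM (2.73 to 4.42) and 9.97 CPM (8.89 to 11.2), a ratio of 2.85 (2.19 to 3.75). Psmb9, the third induced subunit, had 2.0 CPM and 2.79 CPM. The activator subunits lay within 1.5-fold, Psme1 at 78.9 and 89.7 CPM with a ratio of 1.14 (1.07 to 1.21), and Psme2 at 94.8 and 116.7 CPM with a ratio of 1.23 (1.16 to 1.30). Among the measured genes of this group only Psmb10 thus passed 1.5-fold.

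Of the 6 regulators, 2 were higher and 4 were under 10 CPM in both libraries. Irf1 (chromosome 11, 53770014 to 53778374), a transcription factor that acts on class I genes, had 20.5 CPM (18.6 to 22.6) and 34.1 CPM (32.0 to 36.2), a ratio of 1.66 (1.48 to 1.87). Irf9 (chromosome 14, 55603571 to 55610030), the DNA-binding part of the complex with Stat2, had 9.29 CPM (8.01 to 10.7) and 17.4 CPM (16.0 to 19.0), a ratio of 1.88 (1.59 to 2.23). Among those under the minimum, Usp18, which removes Isg15 from proteins and dampens signalling, had 2.05 and 8.80 CPM. Irf7, the factor that amplifies type I interferon, had 1.75 and 5.36 CPM, and Stat2 had 4.05 and 7.83 CPM. Nlrc5, the activator of class I genes, had 9 UMIs in control and 14 in KO cells, too few to compare.

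The largest ratios were among the 14 effectors, of which 5 were higher, 4 were within 1.5-fold and 5 were under 10 CPM. Ifit3 (chromosome 19, 34583531 to 34588731), of the family whose proteins bind viral RNA, had 2.45 CPM (1.81 to 3.24) in control cells and 26.5 CPM (24.7 to 28.4) in KO cells, a ratio of 10.8 (8.11 to 14.8). Its neighbour Ifit1 (chromosome 19, 34640871 to 34650009) had 1.7 CPM (1.18 to 2.37) and 15.9 CPM (14.5 to 17.4), a ratio of 9.35 (6.60 to 13.7). Ifit2 (chromosome 19, 34550694 to 34576419) had 5.15 CPM (4.2 to 6.24) and 18.6 CPM (17.1 to 20.2), a ratio of 3.61 (2.92 to 4.50). The Ifit genes include near copies, Ifit3 and Ifit3b for example, so their reads may be split among them.

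Bst2 (chromosome 8, 71534255 to 71537456), the tether of budding virus also called tetherin, had 42.5 CPM (39.7 to 45.4) and 116.3 CPM (112.5 to 120.2), a ratio of 2.74 (2.54 to 2.95). Isg15 (chromosome 4, 156199424 to 156200818), a ubiquitin-like modifier, had 11.8 CPM (10.3 to 13.4) and 25.4 CPM (23.7 to 27.3), a ratio of 2.16 (1.86 to 2.51). Members of the same group did not differ alike: Ifi27 had 284.1 and 301.8 CPM with a ratio of 1.06 (1.03 to 1.10), and Ifi35 had 31.8 and 31.1 CPM with a ratio of 0.976 (0.882 to 1.08). Xaf1, with a ratio of 1.09 (0.931 to 1.27), and Gbp2, a guanylate-binding protein, with 1.34 (1.15 to 1.57), also lay within 1.5-fold. Of those under 10 CPM, Oasl2 had 18 UMIs in control and 172 in KO cells, Rtp4 24 and 193, Gbp3 30 and 141, and Rsad2 7 and 73. Oas1a, with 0 UMIs in control and 8 in KO cells, had too few to compare.

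Of the Ifitm family, membrane proteins that block viral entry, Ifitm3 (chromosome 7, 141009586 to 141010770) was higher and Ifitm2 was not. Ifitm3 had 186.4 CPM (180.5 to 192.5) and 405.3 CPM (398.2 to 412.5), a ratio of 2.17 (2.10 to 2.26). Ifitm2 had 414.3 CPM (405.4 to 423.3) and 488.9 CPM (481.1 to 496.8), a ratio of 1.18 (1.15 to 1.21). Ifitm1 had 15 UMIs in control and 26 in KO cells.

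Contractile state was taken as the share of a cell's UMIs that came from 14 contractile genes, none of them a member. Its median was 5.15% in labelled control cells and 2.25% in labelled KO cells, and each library was cut by it into 3 parts of equal size. The cuts lay at 4.41% and 5.92% in the control and at 1.38% and 3.15% in the KO library, so equal parts do not hold equal shares, and 164 to 186 cells lay within 0.25 percentage points of a cut. These are ranges of a score and not cell types.

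In the least contractile part, 11 of 23 measured members were higher in the KO library, where 13.8% of all genes were, and 1 member, Tap2, was lower, where 19.6% of all genes were. In the middle part 12 of 22 were higher, against 14.5% of all genes, and 0 lower, against 11.2%. In the most contractile part 11 of 21 were higher, against 13.2%, and 0 lower, against 8.34%. In each part 5 members reached 10 CPM only in the KO library. Among those that reached it in the control, 6 of 18 were higher in the least, 7 of 17 in the middle and 6 of 16 in the most contractile part. The genes higher in all 3 parts were B2m, Psmb10, Ifit1, Ifit2, Ifit3, Isg15, Bst2 and Ifitm3. H2-K1, H2-T23, Irf1 and Irf9 were higher in 2 parts, and Psmb8 and Gbp2 in 1.

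The size of the ratio differed between the parts. For B2m it was 2.81 (2.72 to 2.90) in the least contractile part, 1.83 (1.77 to 1.90) in the middle and 1.64 (1.59 to 1.69) in the most contractile part. For Bst2 it was 4.56 (3.93 to 5.31), 2.16 (1.89 to 2.48) and 1.98 (1.76 to 2.24), and for Ifitm3 it was 3.11 (2.91 to 3.33), 1.80 (1.68 to 1.92) and 1.71 (1.61 to 1.82). These intervals for the least contractile part lay apart from the other 2. H2-D1 was nearest to the limit there as well, at 1.31 (1.23 to 1.40). Irf1 and Irf9 went the other way, with 1.16 (0.976 to 1.39) and 1.38 (1.07 to 1.81) in the least contractile part against 1.92 (1.52 to 2.45) and 2.21 (1.62 to 3.06) in the most contractile part. Psmb10 also had its smallest ratio in the least contractile part, at 1.55, 1.61 and 2.10 from the least to the most contractile part. So did Ifit1 (6.19, 10.9 and 12.2) and Ifit2 (2.58, 4.85 and 3.64). For Psmb10, Ifit1 and Ifit2 the intervals of the parts overlapped, so this order is uncertain. For Ifit1 they were 3.43 to 12.3 in the least contractile part and 6.47 to 19.8 in the middle. Ifit3 instead had its largest ratio in the least contractile part, at 17.3, 12.2 and 5.95 in the same order, also with overlapping intervals. Fibroblast markers summed to 105.4 CPM in the least contractile control cells and to 1570 CPM in the least contractile KO cells. In the most contractile cells they summed to 15.3 and 80.4 CPM. In the least contractile part of each library 4 of the 7 markers reached 10 CPM. Their part in these ratios was not tested.

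To set cells of like contractile share side by side, cells of both libraries between 2.52% (the 5th percentile of the control) and 6.00% (the 95th percentile of the KO) were compared. This range held 1073 control and 760 KO cells, with median shares of 4.57% and 3.67%. Within it 9 of 21 measured members were higher and 0 lower, against 9.37% of all genes higher and 11.3% lower. Of the 18 that reached 10 CPM in these control cells 6 were higher, and the median log2 ratio was 0.48 for the members and -0.05 for all genes. With the mitochondrial limit at 5% in place of 10%, which left 643 control and 179 KO cells in the range, 14 of 23 measured members were higher, where 10.4% of all genes were, and 9 of the 18 that reached 10 CPM in the control. B2m had 702.7 CPM in these control cells and 1258 CPM in these KO cells, a ratio of 1.79 (1.74 to 1.84). Ifit3 had a ratio of 8.39 (5.57 to 13.1), Bst2 of 2.52 (2.26 to 2.82), Ifitm3 of 1.89 (1.80 to 2.0) and H2-K1 of 1.52 (1.42 to 1.64). Irf1 at 1.35 (1.16 to 1.58) and Irf9 at 1.47 (1.17 to 1.85) were under 1.5-fold, and H2-T23 stayed under 10 CPM there.

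Within 1 library both sides share a preparation. In the KO library 8 of 23 measured members were at least 1.5-fold higher in the least than in the most contractile part, where 12.1% of all genes were, and 1 was lower, where 8.7% were. The 8 were B2m, H2-T23, Tapbp, Psmb8, Ifit3, Isg15, Bst2 and Ifitm3, and the lower one was Ifi35. Of the 21 members at 10 CPM or more in the most contractile KO part, 6 were higher. KO B2m had 1259 CPM in the most and 2080 CPM in the least contractile part, a ratio of 1.65 (1.62 to 1.69). In the control 4 of 18 were higher, where 15.6% of all genes were, and 1 was lower, where 1.81% were, and 2 of the 16 at 10 CPM or more in its most contractile part were higher. These 4 were Tapbp, Irf1, Irf9 and Isg15, and the lower one was Ifi27. Control B2m did not follow contractile share, with 766.4 CPM in the most and 741.4 CPM in the least contractile part, a ratio of 0.967 (0.93 to 1.01). Tapbp was thus higher in less contractile cells of both libraries, at 1.57 (1.38 to 1.78) in the control and 1.66 (1.51 to 1.82) in the KO library, although it was within 1.5-fold between them. Ifi27, lower in the control at 0.616 (0.576 to 0.659), stayed within 1.5-fold in the KO library at 0.695 (0.662 to 0.729).

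**Figure D2:**
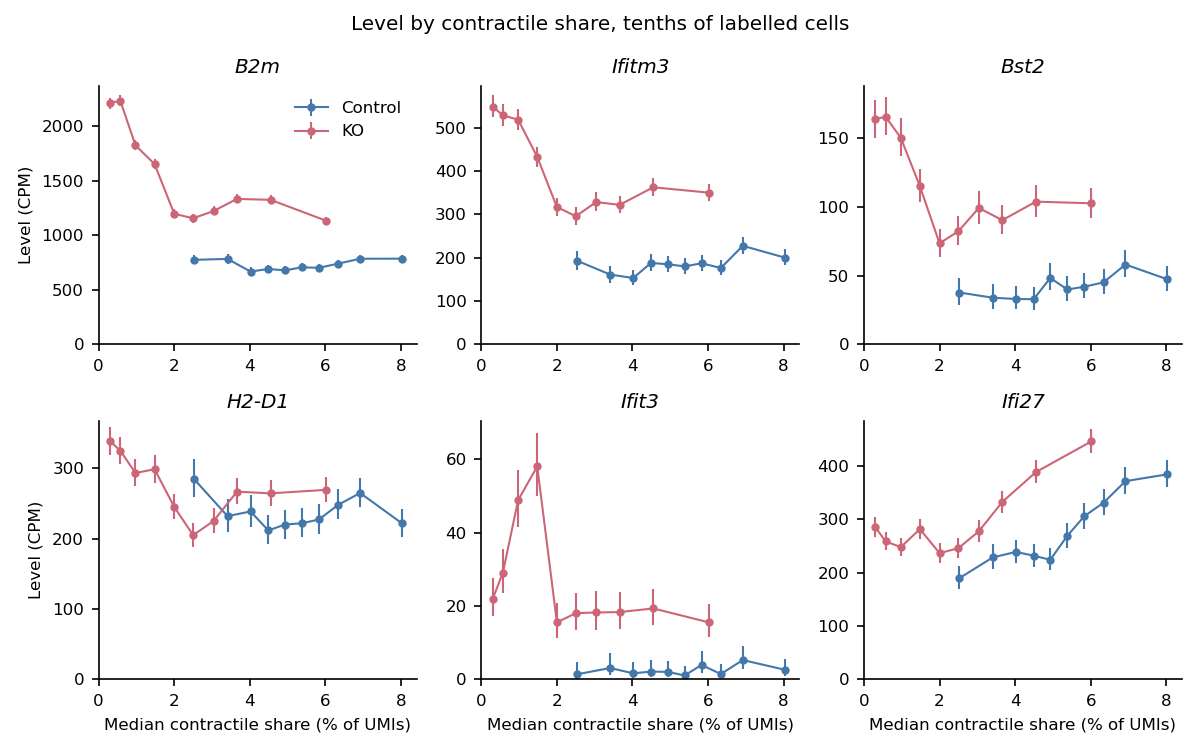
Level in CPM (vertical axes) of 6 members against the median contractile share (horizontal axes, % of UMIs) of 10 equal groups of labelled cells in each library, with 95% counting intervals. B2m lies between 667.4 and 785.7 CPM in the control groups and between 1134 and 2237 CPM in the KO groups, and the KO groups under a share of 2% hold its highest levels.

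Cut into 10 equal groups, the KO cells had a high and a lower range of B2m. The 4 groups with median shares of 0.301% to 1.48% had 2214, 2237, 1826 and 1654 CPM, and the 6 groups from 2.0% upward had 1134 to 1334 CPM. Bst2 had the same shape, with 115.1 to 165.8 CPM in the first 4 and 73.5 to 103.9 CPM in the other 6. Ifit3 peaked inside the low range, at 58.1 CPM (49.9 to 67.2) for a share of 1.48%, above the 21.9 CPM (17.2 to 27.6) of the least contractile group. Ifit1 had 60.3 CPM (52.0 to 69.6) in the same group and 14.4 CPM or less in the other KO groups. A few cells held many Ifit UMIs, as described below, and their part in this peak was not tested. All 10 KO groups lay above all 10 control groups for B2m, for Ifitm3 (296.0 CPM at the lowest against 227.6 at the highest) and for Bst2 (73.5 against 58.1). For H2-D1 the groups overlapped, at 204.9 to 338.8 CPM in the KO and 211.6 to 285.0 CPM in the control library.

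Whether a gene was higher in all cells or in few was read from cells thinned to 5000 UMIs, which removes the difference in depth and leaves 1602 control and 1902 KO cells. Each share of cells with a UMI is set beside the share that the same mean would give if every cell had the same level. In SMCs free RNA can also give a UMI: Ptprc, a leukocyte gene, had one in 4 of 1692 labelled control cells (0.236%) and in 6 of 1919 labelled KO cells (0.313%) before thinning. Cnn1, an SMC gene, had 191 UMIs in 22 of the 350 control cells without the label (6.29%), whose median depth was 3780 UMIs. Of these 350 cells, 20 had 1 to 4 eGFP UMIs, with a median contractile share of 2.5%. The Cnn1 value therefore does not measure free RNA, since SMCs just under the eGFP limit can give it.

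B2m was higher across the KO cells. The median thinned cell held 3 B2m UMIs in control and 6 in KO cells, the 10th percentile 1 and 2, and the 90th percentile 7 and 14. More than 7 UMIs were found in 5.74% of control cells and in 35.6% of KO cells. That share was 56.8% in the least, 26.9% in the middle and 23.2% in the most contractile part of the KO library, against 7.31%, 4.23% and 5.80% in the control. The KO cells were also more uneven, since the variance of B2m UMIs was 5.48 times their mean in the KO and 1.49 times in the control library, where equal levels give about 1.

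Bst2 and Ifitm3 were found in more KO cells, and in fewer than equal levels would give. Bst2 had a UMI in 18.6% of control cells (16.7 to 20.6, exact binomial interval) and 34.3% of KO cells (32.1 to 36.5), where equal levels would give 19.5% and 42.0%. Ifitm3 had one in 54.3% (51.8 to 56.8) and 71.3% (69.3 to 73.4), where equal levels would give 61.3% and 85.0%. H2-K1 had one in 38.5% (36.1 to 40.9) and 50.6% (48.4 to 52.9). Psmb10 (7.37% and 12.6%, equal levels 7.51% and 13.2%) and Irf9 (4.68% and 9.04%, equal levels 4.87% and 9.46%) lay near equal levels in both libraries, but at means this far below 1 UMI per cell the share cannot tell an equal level in every cell from a higher level in part of them.

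The Ifit genes and Isg15 did not share 1 pattern. Ifit2 was found in 2.5% of control cells (1.79 to 3.38) and 7.47% of KO cells (6.32 to 8.74), near the 7.83% of equal levels, with the same limit of a low mean. Ifit3 was found in 1.31% (0.813 to 2.0) and 8.25% (7.06 to 9.58), against 10.6% at equal levels. Ifit1 was found in 0.624% (0.300 to 1.14) and 3.26% (2.51 to 4.16), against 5.57%. Isg15 was found in 4.81% (3.81 to 5.97) and 5.99% (4.97 to 7.16), intervals that overlap, while its mean over thinned cells was 1.87 times higher. The variance of its UMIs was 4.97 times their mean in the KO and 1.9 times in the control library, and the thinned cell with most held 17 and 8.

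**Figure D3:**
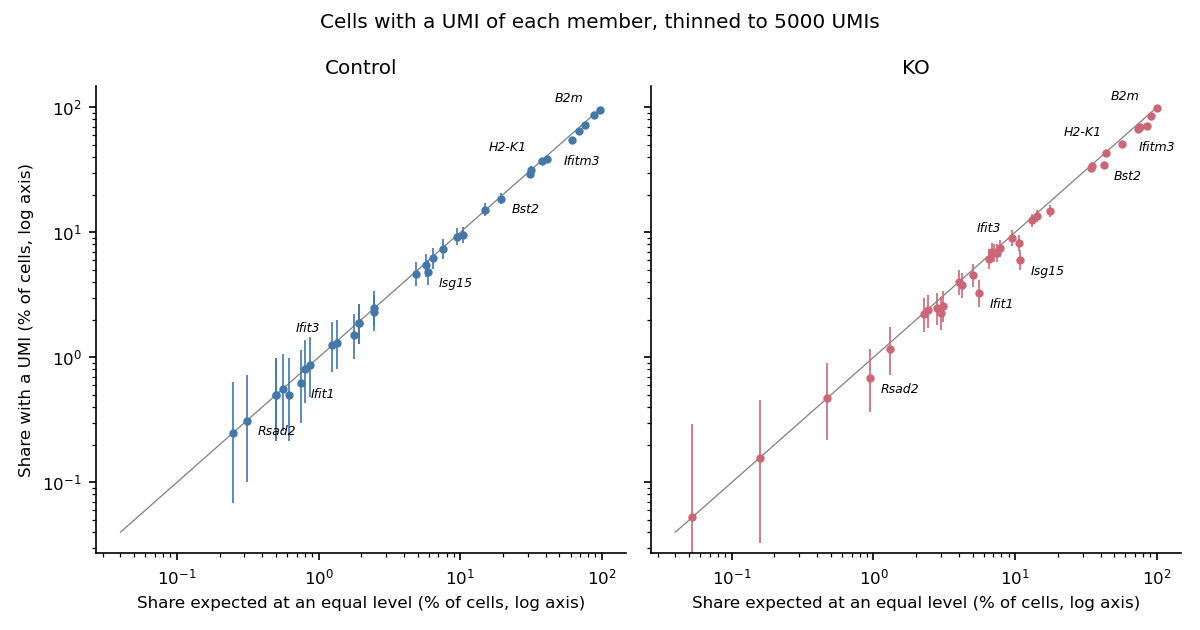
Share of thinned cells with a UMI of each member (vertical axis, %, log scale) against the share that an equal level in every cell would give (horizontal axis, %, log scale), in the control and KO libraries, with exact 95% binomial intervals; the line marks equality. Members of low mean lie near the line with little room to fall below it, and Isg15 (5.99% found, 10.8% at equal levels) and Ifit1 (3.26% and 5.57%) in the KO library lie under it.

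Part of the Isg15 lay in few cells of both libraries. Cells with 3 or more thinned UMIs summed over Ifit1, Ifit2 and Ifit3 are called interferon-high here. There were 21 in the KO library, 1.10% of thinned cells (0.685 to 1.68), and 2 in the control, 0.125% (0.0151 to 0.450). Those 3 genes chose the cells and are described without being read as a result. Just under the limit, 36 KO and 2 control cells had 2 UMIs, and just above it 7 KO cells and 1 control cell had 3. The KO cells with most had 37 and 16.

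The 21 cells spanned contractile shares from 0.423% to 6.25%. Of them 12 lay in the least contractile part (1.89% of its cells, 0.979 to 3.27), 4 in the middle (0.637%, 0.174 to 1.62) and 5 in the most contractile part (0.784%, 0.255 to 1.82), and these intervals overlap. They had 13 or more eGFP UMIs each, a median of 16249 UMIs, 8 of 8 SMC markers above 10 CPM, and no barcode shared between the libraries. Leukocyte genes were nearly absent from them: 33 markers gave 9 UMIs over all 21 cells, with 0 of Ptprc and at most 2 in 1 cell. Endothelial markers gave 11 UMIs, 1 of them Pecam1. The 2 interferon-high control cells held 3 leukocyte UMIs, with some in each cell, and 5 endothelial UMIs, 3 of them Pecam1.

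In these 21 KO cells, 12 of the 29 measured members outside the choosing genes were at least 5-fold higher than in the remaining KO cells, a size that 0.874% of all genes reached, and 0 were 5-fold lower, against 0.694%. Most of the 12 reached 10 CPM only in the interferon-high cells. Of the 19 that reached it in the remaining KO cells, 3 were 5-fold higher, namely Isg15, Gbp2 and Xaf1. Rsad2, the antiviral enzyme viperin, had 1.09 CPM in the remaining cells and 105.9 CPM in the interferon-high cells, a ratio of 97.3 (59.9 to 159.3). Isg15 had 17.2 and 688.5 CPM, a ratio of 40.1 (34.4 to 46.6), and Irf7 3.76 and 135.1 CPM, a ratio of 35.9 (25.3 to 50.4). Usp18 had a ratio of 20.1 (14.6 to 27.2), Rtp4 of 19.0 (12.9 to 27.4), Oasl2 of 17.0 (11.0 to 25.3) and Gbp2 of 14.6 (11.2 to 18.7). In the class I pathway Psmb8 had a ratio of 9.67 (6.53 to 13.9) and Tap1 of 8.52 (4.53 to 14.8). Both reached 10 CPM only in the interferon-high cells. The effector Xaf1 had a ratio of 6.38 (4.30 to 9.15), an interval that overlaps both, and Bst2 had 4.63 (3.99 to 5.36). B2m at 2.24 (2.12 to 2.37), H2-K1 at 2.06 (1.72 to 2.45) and H2-D1 at 1.58 (1.34 to 1.84) were higher by less, and Tapbp at 1.31 (0.950 to 1.76) lay within 1.5-fold. Ifi27 did not differ, at 302.2 and 301.9 CPM.

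**Figure D4:**
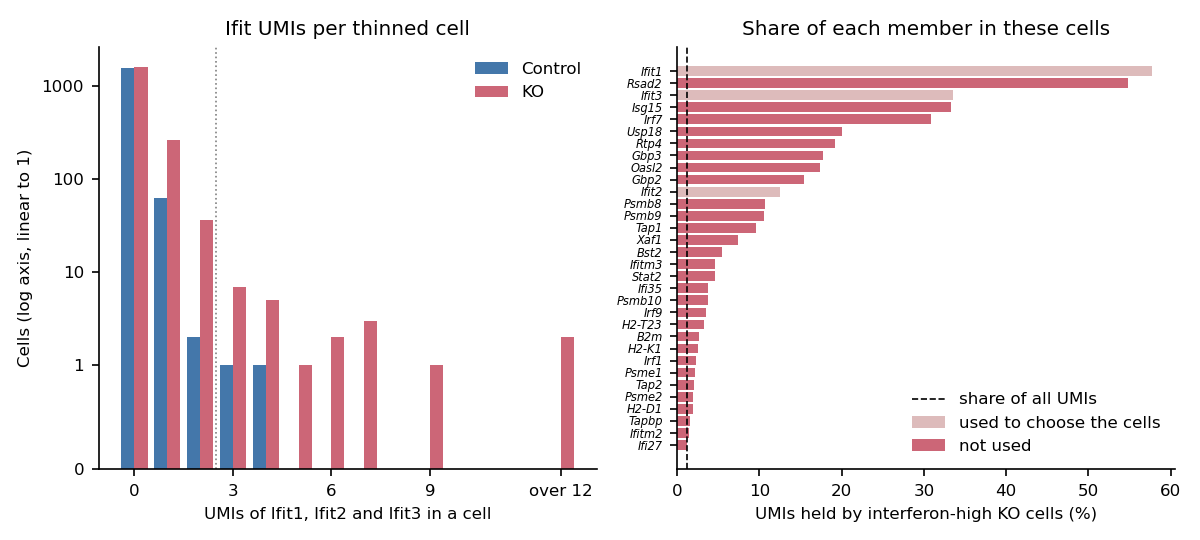
Left, number of thinned cells (log axis, linear to 1) by their summed UMIs of Ifit1, Ifit2 and Ifit3 in each library, with the limit of 3 dotted; right, the share of each member's KO UMIs (%) held by the 21 interferon-high KO cells, with their 1.23% share of all UMIs dashed and the choosing genes in pale. Rsad2 (54.8%), Isg15 (33.3%) and Irf7 (30.9%) lead the members that did not choose the cells, and Ifi27 (1.23%) sits at the share of all UMIs.

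These cells held 1.23% of the KO UMIs of all genes but 54.8% of those of Rsad2, 33.3% of Isg15, 30.9% of Irf7 and 20.0% of Usp18. Their shares of Ifit1 (57.7%) and Ifit3 (33.5%) follow from the choice. The 2 interferon-high control cells held 0.134% of the control UMIs, 13.4% of those of Isg15 and, by the choice, 39.4% of Ifit1. The interferon-high KO cells held 2.71% of the KO UMIs of B2m, 5.46% of Bst2, 4.65% of Ifitm3 and 2.5% of H2-K1. Without the interferon-high cells of both libraries, 11 of 21 measured members were higher, against 13.1% of all genes, and 7 of the 17 that reached 10 CPM in the control. The gene that left the count was Ifit1, which then had 1.05 CPM in control cells and 6.81 CPM in KO cells and so passed under 10 CPM, at a ratio of 6.48 (4.13 to 10.7). Ifit3 had 2.0 and 17.9 CPM, a ratio of 8.92 (6.47 to 12.6), Isg15 a ratio of 1.68 (1.42 to 1.98), Gbp2 of 1.18 (1.01 to 1.40), B2m of 2.09 (2.05 to 2.12) and Bst2 of 2.67 (2.47 to 2.88). The class I ratios therefore barely moved, and Isg15 moved most among the called members that did not choose the cells.

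Pathway genes outside the 35 came from fixed lists. Over the same labelled cells 13.2% of all measured genes were higher and 11.4% lower. Of a list of other class I chains and loading factors 6 of 18 were measured and 0 were called, from Pdia3 and Mr1 at 0.847 to Canx at 1.45 and H2-T22, a nonclassical chain, at 1.49. The sixth, H2-Ke6 at 0.726, lies in the H2 region and encodes a steroid dehydrogenase, so it belongs to neither kind. All 16 constitutive proteasome genes lay within 1.5-fold, at 0.765 to 1.30. None of the 10 class II genes and none of the 11 interferon genes reached 10 CPM, and the interferon genes gave 2 UMIs in each library. Of 16 interferon receptor and signalling genes 13 were measured: the receptor chain Ifngr2 was higher at 1.52 (1.42 to 1.62), and the brakes Socs1 at 0.624 (0.563 to 0.690) and Pias1 at 0.542 (0.497 to 0.591) were lower. Of 9 measured genes of nucleic acid sensing 4 were higher and 0 lower. Of the 7 that reached 10 CPM in the control, 2 were higher. The 4 were Samhd1 at 1.87, Adar at 1.84, Ddx58, which encodes the RNA sensor RIG-I, at 1.69 and Eif2ak2 at 1.61. Mavs was lowest at 0.760. All 7 measured NF-kappaB genes lay within 1.5-fold, from Rela at 0.818 to Ikbkb at 1.35. Of 20 genes of dissociation stress, all measured, 0 were higher and 9 lower, with ratios of 0.222 to 1.38. The part of dissociation in the member ratios was not tested.

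Of 60 other interferon-stimulated genes 16 were measured, and 8 were higher, where 13.2% of all genes were, and 0 lower, where 11.4% were. Of these 8, 6 reached 10 CPM only in the KO library, and 2 of the 10 that reached it in the control were higher, Samd9l at 1.83 and Ifi30 at 1.95. Ly6a, the membrane protein Sca-1, had 0.45 CPM in control cells and 18.1 CPM in KO cells, a ratio of 40.2 (21.0 to 88.3). Ifi27l2a had 8.50 and 125.8 CPM, a ratio of 14.8 (12.7 to 17.4), and Ly6e 2.15 and 27.3 CPM, a ratio of 12.7 (9.34 to 17.7). These 3 kept ratios of 40.2, 14.1 and 13.5 without the interferon-high cells. The lowest were Ccl5, a chemokine, at 0.696, Nmi at 0.854 and Znfx1 at 0.949. Ly6a was found in 3.15% of thinned KO cells, where equal levels would give 6.85%, and Ifi27l2a in 21.5%, where they would give 47.8%, so both were uneven over the KO cells.

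The authors' deposited table gives mean expression per cluster, from its values per 10000 counts. In the authors' deposited table the KO cluster with the least Myh11 among those with eGFP, cluster 2 at 3.41, had the highest B2m of them, 20.6, against 8.89 in cluster 0, where Myh11 was 13.2. In the control columns of the authors' deposited table, B2m was 7.53 in clusters 0 and 1 and 8.06 in cluster 4, all with eGFP at 45.4 or more. Control cluster 2 of the authors' deposited table, with eGFP at 39.7 and Myh11 at 4.64, had B2m at 12.5. Control cluster 3 of the authors' deposited table, with eGFP at 9.73 and Myh11 at 3.83, had 22.5. Psmb8 in the authors' deposited table was 4.52 in control cluster 3, against 0.0449 to 0.098 in control clusters 0, 1 and 4. It was 5.04 to 6.65 in control clusters 5 to 8, where eGFP was 0.485 or less. Which cells control cluster 3 held was not tested.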

How the data were processed

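The members and lists were chosen with earlier results of these data known. Per the labels' protocols, thoracic aortas were dissociated enzymatically, GFP-bearing live cells were sorted, and 10x Chromium libraries were prepared. For each library, raw UMI counts per gene and cell were deposited. Tools named, per the submitters' processing notes, are Cell Ranger, bcl2fastq and Seurat 2.0, with the build mm10; nothing used here says how cells were called. The authors' deposited table of other values, means per cluster, has 16 columns of 16415 genes that each sum to 10000, and was only quoted.

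Counts were summed over the chosen cells of a library and divided by their total (CPM), and the KO to control ratio got an exact 95% interval (conditional binomial, for 2 Poisson counts). Shares of cells got exact binomial (Clopper-Pearson) intervals, and all intervals cover counting error only. A gene was called at a ratio of at least 1.5 or at most 1/1.5, with 10 CPM or more in either library, and a count of 0 was set against a floor of 3 counts. No test was run, since each genotype has 1 library. Thinning drew 5000 UMIs per cell without replacement, and 90 labelled control and 17 labelled KO cells were shallower and left out. No doublet caller was run, and cells above 30000 UMIs and cells with leukocyte or endothelial markers were left out as alternatives. Every member is accounted for, and values are given for each at 10 CPM or more. Of each pathway list up to 3 genes at either end are named or the range is given. A gene of the fixed lists is not reported here. The calling script was tested on simulated data. Gene positions came from GENCODE M21 (mm10), where 27722 of 28000 features were found. Analyses used Python 3.11.15, NumPy 2.4.6, SciPy 1.17.1, pandas 2.3.3 and, for TMM factors, edgeR 4.0.16 in R 4.3.3.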

Additional observations from a re-analysis of the deposited data

Results flagged for a closer look

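Cells without the lineage label were outside the comparisons. At 10 CPM or more, 30 of the 35 members were at least 1.5-fold higher in the unlabelled than in the labelled control cells, and Ifi27 was lower. The share of all genes that passed this rule was not counted, so the count is not read as a result about the members. The 350 unlabelled control cells had 578.1 CPM of Psmb8, against 3.5 CPM in the labelled control cells, 3256 CPM of B2m against 731.6 CPM, and 173.6 CPM of Ifitm1 against 0.75 CPM. Ptprc, the pan-leukocyte surface protein CD45, had a UMI in 69.7% of them and in 0.236% of labelled control cells. Both libraries are labelled male, but Xist, the noncoding RNA that silences an X in female cells, had a UMI in 86.6% of the unlabelled control cells and in 0.296% of the labelled ones, and 4 Y-linked genes together in 1.71% and 80.6%. Of the 17 unlabelled KO cells, 11 carried a barcode that the control library also holds, as did 12 of the unlabelled control cells. Ifit1 had 4.18 CPM in the unlabelled and 1.7 CPM in the labelled control cells, and Ifit3 had 18.1 and 2.45 CPM.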

How the results depend on the processing

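All 12 members called higher kept a ratio of at least 1.5 under each of 12 alternatives that kept their cells' summed levels comparable: TMM scaling, a total without dominant genes, mitochondrial limits of 5% and 20%, eGFP limits of 1 and 20 UMIs, means over cells, and leaving out marker cells, interferon-high cells, the cell with most Ifit UMIs, cells above 30000 UMIs or shared barcodes, the last 3 chosen after seeing the data. No value reversed. Sizes did move: under the 5% mitochondrial limit 13 of 34 member ratios left their main counting interval, 2 of them closer to 1. Under each of the other alternatives at most 5 did. Counts of called members moved as well. A 50 CPM minimum gave 4 higher members over all labelled cells, 4, 3 and 4 from the least to the most contractile part, and 4 at matched share. No minimum gave 20, then 19, 22 and 21, then 18. A fold of 2 gave 7 in the middle part, 6 in the most contractile part and 4 at matched share. The share of all genes was not counted with no minimum or at a fold of 2. It was not counted at 50 CPM in the parts or at matched share either. These counts are therefore not read as results about the members. The 5% mitochondrial limit, which kept 1002 control and 648 KO cells, gave 15 of 25 measured members higher over all labelled cells. Of all genes 13.6% were higher there. Of the 18 members that reached 10 CPM in the control, 8 were higher. This limit also gave 1 lower member, where 13.8% of all genes were. It gave 14 higher at matched share, where 10.4% of all genes were, and the cause was not tested.

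Between the least and most contractile parts of 1 library, a fold of 2 gave 1 higher and 0 lower in the control and 0 higher and 0 lower in the KO library, and a 50 CPM minimum 1 higher in the control and 4 higher and 0 lower in the KO library. A cut into 10 groups in place of 3 gave 4 lower in the KO library, and means over cells 0. Under these settings, too, the share of all genes called was not counted. Shares of cells with a UMI follow depth by construction. Thinned to 3000 UMIs they were 85.8% and 93.9% for B2m in control and KO, 0.654% and 5.05% for Ifit3, and 2.85% and 4.12% for Isg15. Thinned to 8000 UMIs they were 99.6% and 99.6% for B2m, 12.9% for Ifit3 in the KO, and 6.72% and 9.10% for Isg15, with 1.97% interferon-high KO cells. Another random seed gave 96.2% for control B2m. At 2 or more Ifit UMIs 3.00% of KO cells were interferon-high, and at 5 or more 0.473%, with 0 in the control, as also without cells with leukocyte or endothelial markers (259 control and 348 KO cells left out). No paired analysis was possible because each genotype had 1 library.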

Other observations

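Interferon-high KO cells also carried chemokines and GTPases that are no members. Cxcl10, which draws activated T cells, had 521.7 CPM in the 21 interferon-high KO cells and 2.74 CPM in the remaining KO cells, a ratio of 190.6 (146.8 to 249.4). Ccl5, another such chemokine, had 635.6 and 3.53 CPM, a ratio of 180.1 (142.8 to 228.4). Without the interferon-high cells Ccl5 was lower in the KO library, at 16.2 CPM in control and 3.52 CPM in KO cells, a ratio of 0.217 (0.173 to 0.271), beside the 0.696 over all labelled cells. The markers of T and NK cells, in which Ccl5 is abundant, summed to 12 CPM in control and 2.31 CPM in KO cells, and their part was not tested. The nucleotide kinase Cmpk2 had a ratio of 48.2 (32.5 to 70.6) in the interferon-high cells, the GTPase Iigp1 of 27.6 (21.7 to 34.9) and the checkpoint ligand Cd274 of 19.5 (10.8 to 33.5). These genes were named after their values were seen.

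The 192 KO cells with the highest B2m level, chosen by that level, had a median contractile share of 0.688%, against 2.41% in the remaining 1727. They had 1230 CPM of the adhesion molecule Vcam1 against 366.1 CPM, 712.4 CPM of the matrix proteoglycan Lum against 189.9 CPM, and 224.3 CPM of Cnn1 against 662.1 CPM. Ptprc was at 0.267 and 0.185 CPM. Members were higher in these KO cells too, with ratios of 7.88 for Isg15, 4.92 for Ifit3, 3.55 for Bst2, 2.45 for H2-D1 and 2.37 for H2-K1. Tap2, Tapbp, Psme1, Psme2, Irf1, Irf9, Ifit2, Ifi27 and Ifitm2 lay within 1.5-fold. The share of all genes was not counted, and how many of these KO cells were interferon-high was not counted either. In the control the 169 cells chosen alike had a median share of 5.0%, against 5.15%, and their Vcam1 was 17.2 against 11.7 CPM. Their Lum was 33.8 against 3.15 CPM, a ratio of 10.7 (7.41 to 15.6), where the KO ratio was 3.75 (3.58 to 3.93). In these control cells the ratio was 2.34 for Isg15, 1.47 for Bst2, 1.41 for H2-D1 and 1.42 for H2-K1, and Ifit3 stayed under 10 CPM.

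The 45 control and 146 KO labelled cells over the mitochondrial limit were used in no comparison. B2m had 514.3 and 1077 CPM in them, a ratio of 2.09 (1.73 to 2.56), and Ifitm3 113.8 and 251.1 CPM, a ratio of 2.21 (1.47 to 3.45).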
